A study of Mus musculus and Heterocephalus glaber with 4 samples.

Results

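The regions described here are mouse open-chromatin sites that were found in fibroblasts with and without SV40 large T antigen but held a different rank in the strength order of the cells' peak lists. ATAC-seq was done on adult skin fibroblasts of mouse, at passage 16, in 15% serum at 37 °C, 3% oxygen and 5% CO2. The mouse_control group is 1 library of cells with no added antigen, and the mouse_large_T group is 1 library of the same kind of cells after introduction of the SV40 large T antigen. The series holds 4 libraries, and its naked mole rat libraries were not used for these sites. The labels give no strain, sex, age, clone or vector, and no gene annotation of the files' build was used here, so the fibroblast label was not checked at marker loci.

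Members were chosen by the deposited peak score. A control peak and a large T peak on chromosomes 1 to 19 formed a pair when each was the other's longest overlap. Scores were turned into percentiles among the 51948 pairs within each list, with 100 for the highest score, and a pair was kept when its percentiles differed by more than 25 points. Pairs at least 2000 bp wide in both lists (8041 pairs) were left out. This gave 8300 members (16.0% of all pairs): 4051 risers, higher in the large T list, and 4249 fallers, higher in the control list. Over all pairs, wide ones included, 8.43% passed the limit upwards and 8.48% downwards. These shares depend on the chosen limit and on how far the lists differ in rank. Ranked among all autosomal peaks instead, which carries the unequal list lengths into the ranks, there were 2643 risers and 6652 fallers. The remaining 35607 pairs, neither wide in both lists nor past the limit, are called the other pairs.

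ATAC-seq marks DNA that the transposase Tn5 can reach, mostly promoters, enhancers and insulator sites where nucleosomes are displaced. The antigen is a viral protein that binds p53 and proteins of the retinoblastoma family, which restrain E2F transcription factors, and it lets primary cells keep dividing. Distal elements differ more between cell states than promoters do, as general background on accessible chromatin. Which members are promoters or enhancers was not determined.

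With 1 library per group there was no replicate error, so no difference between conditions was tested and no p-value is given. Read depth is unknown. The autosomal control list held 72924 peaks and the large T list 61625, and no score in either was under 50, so a site that dropped below that floor in 1 list is not a pair. Intervals given below are 95% binomial intervals over pairs and cover counting error only. They treat neighbouring sites as independent. Members share the same pair of libraries and are not replicates of a condition.

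Risers lay low in the control list and in the middle of the large T list, and fallers the reverse. The median riser stood at percentile 17.4 in control and 55.4 in large T cells; its rank differed by 33.3 points at the median. The median faller stood at percentile 57.3 in control and 18.0 in large T cells, and its median difference was -34.1 points. Differences over 50 points were found in 375 risers (9.26%) and 512 fallers (12.0%). These values chose the members and are a description only. At the limit, the 5 risers just inside differed by 25.0010 to 25.0183 points and the 5 pairs just outside by 24.9836 to 24.9990 points. For fallers the ranges were -25.0087 to -25.0039 inside and -24.9981 to -24.9779 outside. There was thus no gap in the rank differences at the limit. Whether the members form a separate group was not tested.

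**Figure D1:**
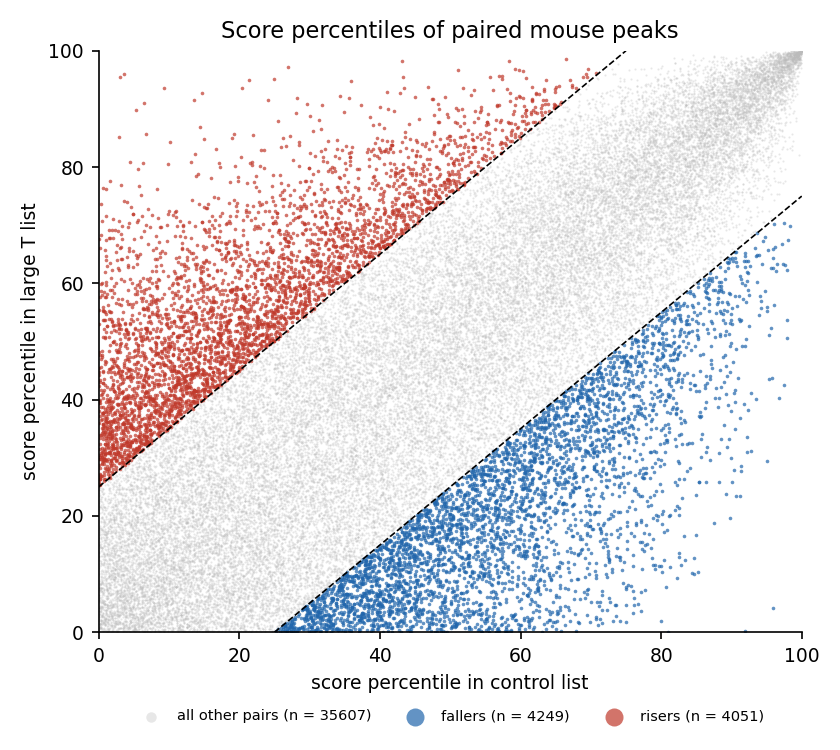
Score percentile among pairs in the control list (x axis) and in the large T list (y axis), 1 point per pair; dashed lines mark a difference of 25 points, and pairs 2000 bp or wider in both lists are not drawn. The 4051 risers lie above the upper line and the 4249 fallers below the lower line, both joined without a gap to the 35607 other pairs.

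The 10 risers with the largest difference stood at percentiles 2.82 to 14.7 of the control list and 80.9 to 96.1 of the large T list. Positions refer to mm9, the build that the submitters' processing notes name. The foremost was on chromosome 4, with a control peak at 8438151 to 8439274 (score 57.24, percentile 3.00) and a large T peak at 8436916 to 8439462 (score 579.33, percentile 95.5). On chromosome 2, the control peak at 145554893 to 145555854 (score 58.57, percentile 3.55) was matched by a large T peak at 145554811 to 145556804 (score 595.38, percentile 96.1). In both cases the large T peak covered 2 control peaks, of which the pair holds the one with the longer overlap, and the peak was wider than its control partner by 1423 and 1032 bp. On chromosome 9, a control peak of 920 bp at 37049551 to 37050470 (percentile 5.26) was matched by a large T peak of 1602 bp (percentile 89.9). Here 1 peak met 1 peak, as in 7 of the 10.

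Of the other 7 risers in this group, 2 more were on chromosome 4, 2 on chromosome 2, 2 on chromosome 6 and 1 on chromosome 7. The control peak at 102872195 to 102873071 on chromosome 4 stood at percentile 6.50 and its partner at 91.0. That at 155607422 to 155609404, also on chromosome 4, stood at 14.7 and 92.8, and its partner again covered 2 control peaks. On chromosome 2 the sites at 124135241 to 124135926 and 158994048 to 158994847 went from percentiles 9.31 and 4.53 to 93.7 and 80.9. On chromosome 6 the sites at 39284023 to 39284820 and 71472561 to 71473525 went from 2.82 and 13.5 to 85.1 and 91.6. The site on chromosome 7 at 86468732 to 86469298 went from 6.72 to 85.6. All 10 peaks were wider in large T cells, by 128 to 1423 bp, and none had a peak found in large T cells only within 10 kb. Peaks found in control cells only lay 9660 and 4383 bp from 2 of them, at 124135241 on chromosome 2 and 86468732 on chromosome 7.

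The 10 fallers with the largest difference had control percentiles of 74.96 to 95.9 and large T percentiles of 0.0886 to 10.3. The foremost was on chromosome 5, with a control peak at 45610802 to 45612622 (score 500.28, percentile 91.9) and a large T peak at 45610791 to 45611411 (score 50.23, percentile 0.150). On chromosome 6, the control peak at 65918483 to 65920158 (score 593.09, percentile 95.9) held a large T peak at 65919172 to 65919947 (score 56.49, percentile 4.23). Their large T scores are close to the list's lowest score of 50. On chromosome 11, a control peak of 3960 bp at 74864568 to 74868527 (percentile 81.0) covered 2 large T peaks, and the paired one was 1278 bp wide (percentile 0.0886). The peak on chromosome 2 at 161336503 to 161339860 (percentile 84.4) also covered 2 large T peaks, the paired one at percentile 10.1.

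The remaining 6 fallers were single peaks in each list. They lay on chromosome 19 at 29164351 to 29165441, chromosome 1 at 121195988 to 121197796, chromosome 6 at 141485107 to 141486803, chromosome 14 at 118855073 to 118856309, chromosome 2 at 131988742 to 131990205 and chromosome 8 at 113200041 to 113201783. Their control percentiles were between 74.96 and 85.3 and their large T percentiles between 1.82 and 10.3. All 10 fallers were narrower in large T cells, with changes of -2682 to -437 bp. They were spread over 8 chromosomes, and the 10 risers over 5. The site on chromosome 1 was the only one of the 20 named sites with a peak of large T cells only within 10 kb, at a gap of 6782 bp. A peak of control cells only lay within 10 kb of 1 of these fallers, 4771 bp from the site at 141485107 on chromosome 6.

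Width moved with rank. Width and score come from the same libraries, so this is a description of the members and no separate evidence. The median riser was 1052 bp wide in control and 1198 bp in large T cells, and its median change was 101 bp (95% interval 91 to 114), or 9.56% of the control width. The median faller was 1369 bp and 918 bp wide, a median change of -420 bp (-431 to -406), or -32.1%. Large T peaks were narrower on the whole: the other pairs changed by -145 bp (-149 to -141). The medians of risers and fallers lay 246 bp above and 275 bp below it.

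Of the risers, 64.7% were wider and 35.2% narrower in the large T list. Of the fallers, 5.86% were wider and 94.1% narrower, against 27.7% and 72.1% of the other pairs. Risers with a narrower large T peak numbered 1424, and fallers with a wider one 249. The median change ran in order through the bins of rank difference, from -650.5 bp (quartiles -940.0 to -431.0) for losses over 50 points to 326 bp (137.5 to 582.5) for gains over 50 points. The median crossed 0 between the bin of gains of 15 to 25 points (-22 bp) and that of 25 to 35 points (49.5 bp).

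**Figure D2:**
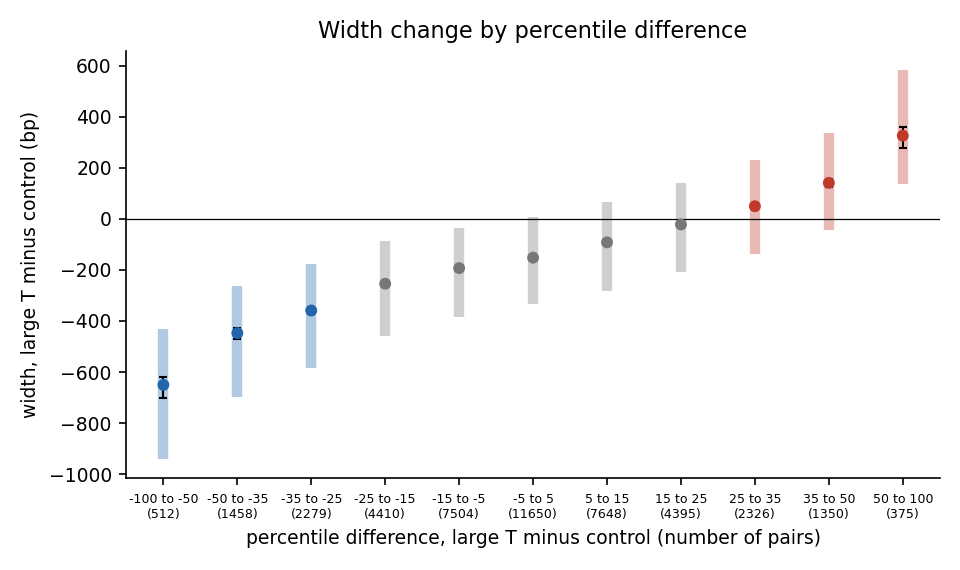
Median width change in bp, large T minus control (points), by bins of percentile difference, with 95% order-statistic intervals (thin bars with caps) and the middle range from the lower to the upper quartile (thick bars); number of pairs in brackets, fallers in blue, risers in red, other pairs in grey. The medians run in order from -650.5 bp to 326 bp, and only the bins of risers lie above 0.

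Width was gained or lost at both ends. Risers extended by a median of 47 bp at the lower-coordinate end and 28 bp at the higher one, and fallers changed by -227 and -146 bp at these ends. The large T peak enclosed the whole control peak in 41.3% of risers, and the control peak enclosed the whole large T peak in 75.8% of fallers. Among the other pairs these shares were 13.3% and 47.8%. Peak centres moved by a median of 82.5 bp in risers, 103 bp in fallers and 78.5 bp in the other pairs. Shared bases made up a median 78.4% of the bases covered by either peak in risers, 66.3% in fallers and 80.4% in the other pairs.

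A few members were joined or divided peaks. A large T peak touched 2 or more control peaks in 62 risers (1.53%) and in 2 fallers (0.0471%). A control peak touched 2 or more large T peaks in 187 fallers (4.40%) and in 6 risers (0.148%). In the other pairs the shares were 0.233% and 0.719%. Multiple overlaps of either kind were found in 9.38% of fallers with a loss over 50 points and in 4.80% of risers with a gain over 50 points, against 0.601% of pairs within 5 points. Without these pairs 3983 risers and 4060 fallers were left, and the median width changes were 96 and -402 bp.

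Pairs were also compared with others at the same level in 1 list. Below control percentile 25, 2632 risers and 9967 other pairs had nearly the same control width, 962 and 976 bp. Their large T widths were 1123 and 875 bp. Between control percentiles 50 and 75, 2046 fallers were 1391.5 bp wide and 8702 other pairs 1482 bp, and in large T cells they were 939 and 1304 bp. The list used for matching decided in which list the widths were closer. Below large T percentile 25, 2701 fallers and 10039 other pairs were 833 and 853 bp wide in large T cells and 1281 and 999 bp in control cells. Between large T percentiles 50 and 75, 1932 risers and 8740 other pairs were 1242 and 1314 bp wide in large T cells and 1088 and 1474 bp in control cells.

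Risers and fallers were unevenly spread over the chromosomes. Over all autosomes risers made up 7.80% and fallers 8.18% of pairs. Chromosome 4 had the highest share of risers, 307 of 3027 pairs (10.1%, 9.09 to 11.3), and the lowest share of fallers, 164 pairs (5.42%, 4.64 to 6.28), or 1.87 risers per faller. Ranked among all autosomal peaks, its shares were 6.48% and 9.38%, so that fallers outnumbered risers, against 5.09% and 12.8% over all autosomes. Chromosome 3 was next in risers (9.63%, 8.62 to 10.7) and had 7.75% fallers. Chromosome 5 was at the other end, with the lowest share of risers (173 of 3126 pairs, 5.53%, 4.76 to 6.39) and 9.44% fallers, or 0.586 risers per faller.

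Chromosome 7 had the next lowest share of risers (5.69%, 4.90 to 6.56). Its share of fallers, 7.57%, was also below the autosomal share, though its interval (6.66 to 8.56) held it. The highest shares of fallers were on chromosome 10 (319 of 3018 pairs, 10.6%, 9.50 to 11.7) and chromosome 1 (9.55%, 8.64 to 10.5). After chromosome 4, the lowest was on chromosome 15 (7.09%, 6.07 to 8.22). The interval excluded the autosomal share on 5 of 19 autosomes for risers (3 and 4 above, 5, 7 and 11 below) and on 4 for fallers (1, 5 and 10 above, 4 below). The median rank difference over all pairs of a chromosome, members included, also varied. It was 2.31 points on chromosome 4, 1.52 on chromosome 3, -1.18 on chromosome 5 and -1.45 on chromosome 10. No such median was computed for the other pairs alone, so whether these also differed between chromosomes was not tested. Copy number of these chromosomes in the cells was not tested.

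**Figure D3:**
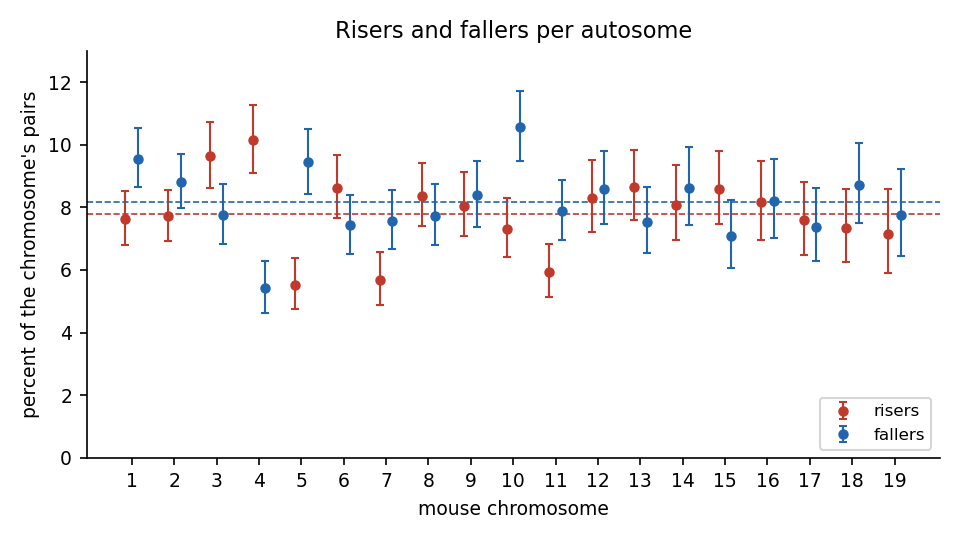
Risers (red) and fallers (blue) as a percent of each autosome's pairs, with exact 95% binomial intervals; dashed lines are the shares over all autosomes, 7.80% and 8.18%. Chromosome 4 shows the widest gap in favour of risers, and chromosomes 5 and 10 lie on the opposite side.

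Pooled over the autosomes, shares differed little between the parts of a chromosome. Single windows of 5 Mb with at least 50 pairs held 0% to 23.1% risers and 1.19% to 22.8% fallers. Their quartiles were 5.32% and 10.0% for risers and 6.19% and 10.3% for fallers. Windows hold few pairs, so their extremes carry a large counting error. In the 1st of 5 equal parts of each chromosome, risers made up 8.27% (7.68 to 8.90) and fallers 8.32% of pairs, and in the 5th part 7.49% (7.04 to 7.96) and 8.03%. Mouse chromosomes have their centromere at the start, so the order of the parts runs from centromere to telomere. Local peak density was alike: risers, fallers and other pairs had a median of 6 control peaks within 50 kb and of 5 large T peaks.

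Members lay beside members of the same direction somewhat more often than other pairs did. At least 1 direct neighbour among pairs was a riser for 18.6% (17.4 to 19.9) of risers, 14.8% of other pairs and 14.6% of fallers. At least 1 was a faller for 18.99% (17.8 to 20.2) of fallers, 15.7% of other pairs and 15.1% of risers. Most members were alone: 3296 risers (81.4%) and 3442 fallers (81.0%) had no direct neighbour of their own direction. Runs of 2 or more numbered 352 for risers and 379 for fallers.

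No run was longer than 4. Of the 6 riser runs of 4, the most compact lay on chromosome 2 at 14541946 to 14568632, 4 sites within 26.7 kb whose differences were 26.0 to 51.5 points. The others with the shortest spans were on chromosome 3 at 146537857 to 146609621 (71.8 kb) and on chromosome 4 at 53811891 to 53945025 (133 kb). Of the 4 faller runs of 4, the most compact was on chromosome 1 at 75631894 to 75702459 (70.6 kb, -43.6 to -26.2 points), followed by chromosome 10 at 10109010 to 10192766 (83.8 kb). The run on chromosome 4 at 114747097 to 114899810 (153 kb) held the largest loss, -68.1 points, on the chromosome with the fewest fallers for its pairs.

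Very close neighbours went apart rather than together. This breakdown by gap was chosen after its values were seen. Among 982 neighbouring pairs with gaps up to 1000 bp, 27 joined a riser to a faller, 6 joined risers and 0 joined fallers, and Spearman's rho of the neighbours' rank differences was -0.27. From 5 to 20 kb, 159 neighbours were both risers, 175 both fallers and 233 opposite among 21250, and rho was 0.05. Gaps of 1 to 5 kb lay between, with 40 both risers, 20 both fallers and 75 opposite among 5622, and a rho of -0.02. These are correlations across sites of the same pair of libraries, given as a description.

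Nearness to peaks found in 1 list only also differed with distance. The autosomes held 9150 peaks of large T cells only and 20837 of control cells only, overlapping no peak of the other list. Within 10 kb the classes were close: 12.7% (11.7 to 13.8) of risers, 11.9% of fallers and 11.4% of other pairs had a large T-only peak. Control-only peaks lay within 10 kb of 20.4% (19.2 to 21.7) of fallers, 20.0% of other pairs and 23.0% of risers. At that distance fallers and other pairs had overlapping intervals for control-only peaks when starting level was not matched. In the highest of 4 equal ranges of control percentile, the control-only share was 23.1% of 724 fallers and 16.6% of other pairs. In the range below it the shares were 19.8% and 18.9%, and in the next one down 20.0% and 20.9%. The bin of rank difference with the largest losses had 24.8%, and that with the largest gains 22.7%. Whether absence from the large T list meant loss of a site was not tested.

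Within 50 kb, risers had a large T-only peak more often (47.1%, 45.6 to 48.7) than other pairs (43.0%) and fallers (38.9%, 37.4 to 40.3). Fallers had a control-only peak more often (71.3%, 69.9 to 72.7) than other pairs (68.5%) and risers (66.5%). Summed over pairs, large T-only peaks made up 36.8% of the single-list peaks within 50 kb of risers, 33.1% for other pairs and 28.7% for fallers. At this scale members had more single-list peaks of their own direction around them than other pairs had. Control-only peaks were still the more common kind around risers, with a mean of 1.16 per riser against 0.677 large T-only peaks. For other pairs the means were 1.20 and 0.595, and for fallers 1.32 and 0.534.

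Within 2 kb the order turned round. The distance of 2 kb was chosen after seeing the values. A control-only peak lay that close to 258 risers (6.37%, 5.64 to 7.17), to 3.16% of other pairs and to 52 fallers (1.22%, 0.915 to 1.60). A large T-only peak lay that close to 155 fallers (3.65%, 3.10 to 4.26), to 2.30% of other pairs and to 67 risers (1.65%, 1.28 to 2.10). With the control list cut to the length of the large T list, an alternative chosen after seeing the data, the control-only shares were 3.86% of risers, 1.51% of other pairs and 0.654% of fallers, and the large T-only shares 2.22%, 3.13% and 4.63%. Starting level mattered here: below control percentile 25 the control-only share was 6.08% of risers and 5.33% of other pairs, and between percentiles 25 and 50 it was 7.31% and 3.59%. Whether these close single-list peaks are parts of the same accessible stretch, cut differently by the peak caller, was not tested.

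**Figure D4:**
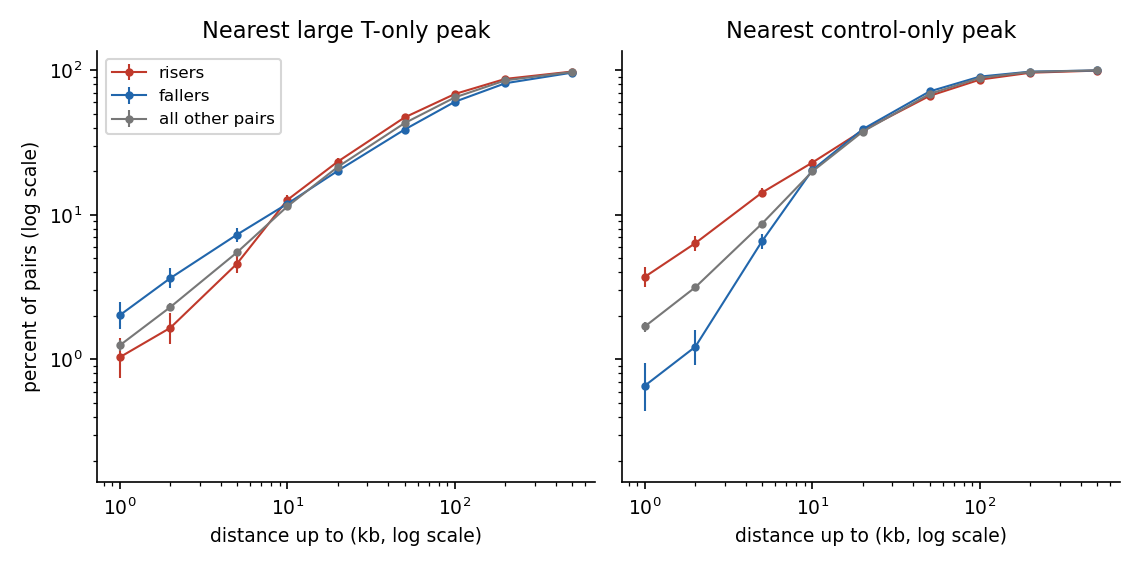
Percent of pairs (y axis, log scale) with a large T-only peak (left) or a control-only peak (right) within the distance on the x axis (kb, log scale), for risers (red), fallers (blue) and other pairs (grey), with exact 95% binomial intervals. The lines cross near 10 kb: within 2 kb control-only peaks lie near 6.37% of risers and 1.22% of fallers, while within 50 kb they lie near 66.5% and 71.3%.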

How the data were processed

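The authors deposited 1 list of peaks per library with 5 columns and no header: chromosome, start, end, a name beginning with MACS and a score. The definition of the deposited score, the caller's settings and any pooling are not given in the sources used here. Other deposited values are start and end positions in bp, read as BED intervals and printed 1-based. The submitters' processing notes name mm9 as the build and list CASAVA, Bowtie, SAMtools and bedtools, without saying what each did.

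Scores were used only as ranks within a list (ties averaged) and printed as each list's own values. Single-list peaks overlap no peak of the other list by 1 bp or more. Gaps were measured from the outer ends of a pair. Intervals are exact binomial (Clopper-Pearson), or order-statistic intervals for medians. Named regions are the 10 members per direction with the largest difference, the 3 longest runs per direction (of equally long ones the most compact) and the autosomes with the 2 highest and 2 lowest shares. The members and lists were chosen with earlier results of these data known. Sequence composition, motifs and genes were planned and not computed, since no genome or annotation of mm9 was used here. Alternatives covered the limit, pairing, ranking, score floor, width and distance. Functions were tested on 50000 control peaks and a copy of them with slightly moved ends and some scores swapped. There, 200 of 200 planted risers and 200 of 200 fallers were found, and overlaps matched bedtools 2.31.1. The planted differences lay past the limit by construction, so this checks the code only. Python 3.11.15, numpy 2.4.6, pandas 2.3.3, scipy 1.17.1 and matplotlib 3.10.9 were used.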

Additional observations from a re-analysis of the deposited data

How the results depend on the processing

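No paired analysis was possible because each group had 1 library. No median width change turned its sign. Of 96 values under alternatives, 56 stayed within the counting interval of the reported value (or within 1.5 times a count) and 40 moved. Some of these could only move. Widths in percent were set against intervals in bp, and shares within 5 or 50 kb against those for 10 kb. Shares beside a member and on chromosome 4 change with the limit by definition. The split is therefore no measure of how robust the results are. With a limit of 20 points the width changes were 65 and -372 bp for risers and fallers, and the chromosome 4 shares 14.01% and 8.49%. The shares beside a member of the same direction were 23.9% and 24.9%. Of other pairs, 20.9% lay next to a riser and 22.3% next to a faller at that limit. With 35 points there were 1725 risers and 1970 fallers, with 178 and -497 bp, 9.74% and 10.7%, and 4.33% and 2.61% on chromosome 4. There, 6.57% of other pairs lay next to a riser and 7.41% next to a faller. Requiring overlap of 50% of both peaks gave -347 bp for fallers and shares beside the same direction of 16.8% and 17.0%. For other pairs the shares next to a riser and next to a faller were then 13.8% and 14.2%. Scores of at least 75 gave 62 and -355 bp. Keeping wide pairs gave 84 bp for risers.

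Ranking among all autosomal peaks, which carries the difference in list length into the ranks, gave 2643 risers and 6652 fallers. Their width changes were 143 and -358.5 bp, and 11.9% and 26.1% lay beside the same direction. Of other pairs, 9.95% lay next to a riser and 23.8% next to a faller in that ranking. On chromosome 4 the shares of risers and fallers were 6.48% and 9.38%, so that fallers outnumbered risers there. Chromosome 4 was still above the autosomal share of risers (5.09%) and below that of fallers (12.8%), as in all 9 settings that kept it. It was followed through the settings after its extreme shares were seen, and the settings re-use the same lists. Within 5 kb, 4.59% of risers had a large T-only and 6.57% of fallers a control-only peak; within 50 kb, 47.1% and 71.3%. Counting only neighbours within 20 kb gave 9.78% of risers and 8.90% of fallers beside the same direction. The share of other pairs was not computed for that setting. As a percent of control width the changes were 9.56% and -32.1%.

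Chosen after seeing the data, leaving out pairs with multiple overlaps gave -402 bp for fallers. Cutting the control list to the length of the large T list, also chosen after seeing the data, gave 68 bp for risers. With that cut, 17.2% of risers and 15.6% of other pairs had a large T-only peak within 10 kb. A control-only peak lay within 10 kb of 14.2% of fallers and 12.4% of other pairs. In all 10 settings the order of risers, other pairs and fallers was as reported for single-list peaks within 2 kb and within 50 kb. Within 10 kb, the reported order of risers above fallers above other pairs held in 8 of 10 settings for large T-only and in 6 of 10 for control-only peaks, and risers stood above other pairs in all 10. Read depth is unknown and limits how far ranks near the score floor can be read.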

Other observations

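Pairs at least 2000 bp wide in both lists, which the members leave out, passed the 25-point limit less evenly. Of these 8041 pairs, 327 (4.07%) stood higher in the large T list and 154 (1.92%) lower, against 9.23% and 9.68% of the pairs under that width in at least 1 list. The median wide pair lay at percentile 81.0 in control and 81.5 in large T cells.

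On the X chromosome, ranked together with the autosomes, 91 of 1417 pairs (6.42%, 5.20 to 7.83) were risers and 135 (9.53%, 8.05 to 11.2) fallers. The median rank difference there was -1.52 points. The width changes had the same signs as on the autosomes, 161 bp for risers and -415 bp for fallers.

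Members were also counted in 413 windows of 5 Mb with at least 50 pairs, and the extremes were picked after seeing the values. The median window had 7.48% risers and 8.19% fallers. The highest share of risers was on chromosome 13 from 25 to 30 Mb, with 15 risers (23.1%, 13.5 to 35.2) and 2 fallers among 65 pairs. Next was chromosome 4 from 50 to 55 Mb, with 12 and 2 among 57, which holds the run of 4 risers at 53811891. The highest share of fallers was on chromosome 5 from 85 to 90 Mb, with 13 fallers (22.8%, 12.7 to 35.8) and 3 risers among 57 pairs.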
